A study of Mus musculus with 2 samples.

Results

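Subplate and layer 6b neurons were sought among single cells of the newborn mouse forebrain by a rule on UMIs, the individually tagged transcripts that droplet sequencing counts. A cell was a member if it held at least 1 UMI of Neurod2 or Neurod6, which encode basic helix-loop-helix factors of cortical excitatory neurons, no UMI of Gad1 or Gad2, which make GABA, and at least 1 UMI in 2 or more of the 4 markers Ctgf, Nxph4, Cplx3 and Nr4a2. Barcodes entered only if they carried at least 1000 UMIs, of which mitochondrial transcripts made up less than 10%. The rule found 105 members among 37116 cells: 57 in the Gmnc-/- library and 48 in the wild-type library. The members were chosen on measured values, and their levels of the rule's own genes are description only.

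The study was made on C57BL/6J mice at postnatal day 0 and asked how P73+ Cajal-Retzius cells and Reelin contribute to cortical morphogenesis. The Gmnc-/- group was 4 homozygous mutant pups from 2 litters, and the wild-type group was 4 of their littermates. Lateral and dorsal cortex and hippocampus of both hemispheres were dissected, pooled by genotype, dissociated and loaded as 1 droplet library of the 3' v3.1 chemistry per genotype. Gmnc encodes Gemc1, a regulator that starts the programme of multiciliated cells and acts upstream of Trp73. With 1 library per genotype no test of genotype was possible. Intervals below are exact 95% intervals that cover counting error only, not differences between animals, litters or libraries.

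The subplate is a transient layer of early-born neurons beneath the cortical plate. It receives the first thalamic axons, secretes matrix and guidance molecules, and largely disappears after birth, leaving the cells of layer 6b. Its neurons sit below the layer 6 corticothalamic cells and are known in the mouse for Ctgf (connective tissue growth factor, a secreted matricellular protein), Nxph4 (a neurexophilin, a secreted ligand of neurexins), Cplx3 (a complexin that controls vesicle fusion) and Nr4a2 (the orphan nuclear receptor Nurr1). Not all of these genes belong to neurons alone: Ctgf is also made by vessels, meninges and glia, and Nr4a2 can be induced as an immediate early gene. On the mm10 build, Ctgf lies on the plus strand at chr10:24595442-24598683. Nxph4 lies on the minus strand at chr10:127525473-127534559, Cplx3 on the minus strand at chr9:57599992-57606281 and Nr4a2 on the minus strand at chr2:57106830-57124003.

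The libraries differed in size and depth. The deposited Gmnc-/- matrix held 27663 barcodes and the wild-type matrix 13033, of which 26178 and 10938 were kept, with a median of 4927 UMIs in Gmnc-/- cells and 6160 UMIs in wild-type cells. Members were the deeper cells of both libraries. Their median was 10421 UMIs (3513 to 56924) in Gmnc-/- members and 20605.5 UMIs (4701 to 91745) in wild-type members. The other cells that passed the Neurod and Gad conditions, called other excitatory cells below, had medians of 5084 UMIs in the Gmnc-/- library (7972 cells) and 6588 UMIs in the wild-type library (3318 cells). A doublet caller marked 33.3% of Gmnc-/- members and 12.5% of wild-type members, against 15.6% and 4.16% of the other excitatory cells. Mitochondrial UMIs had a median of 1.13% in Gmnc-/- members and 3.22% in wild-type members. The libraries shared 67 kept barcodes, none of them a member. Gmnc itself had 0.81 CPM (UMIs per 1000000 UMIs of the summed cells) in Gmnc-/- cells and 0.776 CPM in wild-type cells, and since the deleted part of the gene is not given in the sources used here, this 3' count checks nothing about the labels.

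The markers that qualified a cell were thinly counted. No member held all 4 markers, and 52 of the 57 Gmnc-/- members and 47 of the 48 wild-type members held exactly 2. Nxph4 with Nr4a2 was the pair in 27 Gmnc-/- members and 20 wild-type members. Ctgf with Nr4a2 was the pair in 17 Gmnc-/- members and 21 wild-type members, and Ctgf with Nxph4 in 8 and 6. Cplx3 was found in 2 Gmnc-/- members, both with Ctgf and Nxph4, and in no wild-type member. In the members Ctgf reached at most 6 UMIs per cell in the Gmnc-/- library and 7 in the wild-type library, and Nxph4 at most 3 in either. Just outside the rule, 910 Gmnc-/- cells and 473 wild-type cells met the Neurod and Gad conditions with exactly 1 marker. Their median depth was 6640.5 UMIs in Gmnc-/- and 8922 UMIs in wild-type, between that of the other excitatory cells and that of the members.

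The members were sorted into sets by markers of other cell types, with limits chosen after the members had been seen. The vascular set held UMIs in 4 or more of 8 endothelial and mural markers, the meningeal set in 5 or more of 6 meningeal markers, and the microglial set in 6 or more of 8 microglia and macrophage markers. The choroid set held 1000 or more UMIs of Ttr, the transthyretin of choroid plexus, and the astroglial set held 6 or more of 8 astroglia markers. Of the 57 Gmnc-/- members, 14 fell in the vascular set, 4 in the meningeal set, 1 in the microglial set, 1 in the choroid set, 11 in the astroglial set and 26 in no set. Of the 48 wild-type members, 11 were vascular, 7 meningeal, 2 microglial, 13 astroglial and 15 in no set. The share in no set was thus 45.6% (32.4 to 59.3) of Gmnc-/- members and 31.2% (18.7 to 46.3) of wild-type members, against 85.4% and 82.9% of the other excitatory cells. The vascular set took 24.6% (14.1 to 37.8) of Gmnc-/- members and 22.9% (12 to 37.3) of wild-type members, but 0.552% (0.401 to 0.74) of other Gmnc-/- excitatory cells and 0.995% (0.686 to 1.39) of other wild-type excitatory cells. The sets were also read after every cell was thinned to 2000 UMIs, with members still those chosen at full depth. The vascular share was then 22.8% of Gmnc-/- members and 14.6% of wild-type members, against 0.274% and 0.607% of the other excitatory cells. The vascular excess thus remained for members chosen at full depth. With the rule itself applied to thinned UMIs, 0 of 315 Gmnc-/- vascular cells (0% to 1.16%) and 0 of 217 wild-type vascular cells (0% to 1.69%) met it. Few cells of any kind met the rule at that depth, as given below. The astroglial share, 19.3% of Gmnc-/- members and 27.1% of wild-type members at full depth, was 3.51% and 8.33% after thinning, against 3.16% and 5.73% of the other excitatory cells. Members in no set were 68.4% (54.8 to 80.1) in Gmnc-/- and 64.6% (49.5 to 77.8) in wild-type after thinning, against 94.5% and 91.2% of the others.

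**Figure D1:**
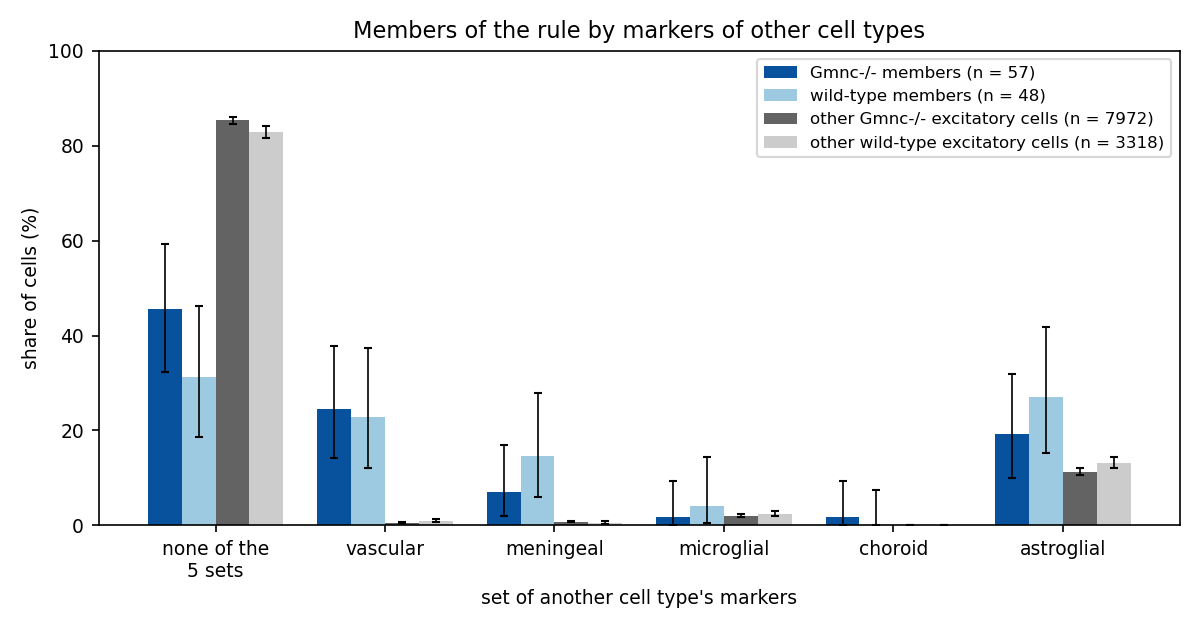
Share of cells (%) in each set of other-type markers, for Gmnc-/- members, wild-type members and the other excitatory cells of each library; bars are shares and lines are exact 95% binomial intervals. Members in none of the 5 sets made up 45.6% (Gmnc-/-) and 31.2% (wild-type), against 85.4% and 82.9% of the other excitatory cells, and the vascular bars stand at 24.6% and 22.9% of members against under 1% of the others.

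The leading genes of the members went against the label of subplate and layer 6b neurons, and the cells are called members of the rule below. The 15 genes with the highest smaller-of-both-libraries ratio of members over other excitatory cells were all genes of vessels or their matrix: Ctla2a, Igfbp7, Cldn5, Flt1, Itm2a, Pglyrp1, Gng11, Eng, Esam, Slc38a5, Egfl7, Ramp2, Higd1b, Kdr and Fn1. These ratios describe a group that the rule chose and carry no test. Cldn5, the tight-junction claudin of brain endothelium, had 1546 CPM in Gmnc-/- members against 29.4 CPM in other Gmnc-/- excitatory cells. In the wild-type library it had 1061 CPM in members against 59.5 CPM in other excitatory cells. Of the Cldn5 UMIs in members, 99.8% in Gmnc-/- and 99.9% in wild-type came from the vascular set. Flt1, a VEGF receptor, had 629 CPM in Gmnc-/- members and 385 CPM in wild-type members, against 9.48 and 20.4 CPM in the other excitatory cells. All 8 endothelial and mural markers stood 1.5-fold or more above the other excitatory cells in both libraries, with a median log2 ratio of 4.29 in Gmnc-/- and 3.18 in wild-type. Over all 4558 genes tested (50 CPM or more in members of either library), 17.1% in Gmnc-/- and 18.3% in wild-type stood 1.5-fold above, and the medians were -0.01 and -0.03. Erythroid markers, mainly haemoglobin genes, summed to 31913 CPM in the Gmnc-/- vascular set and 100067 CPM in the wild-type vascular set, against 151 and 169 CPM in members of no set.

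Several genes of cortical excitatory neurons were lower in the members than in the other excitatory cells. Among the 8 lowest were Khdrbs2, Plxna4, Kcnd2, Ppfia2, Epha3, Edil3 and Bhlhe22. Kcnd2, a subunit of A-type potassium channels, had 167 CPM in Gmnc-/- members and 65.9 CPM in wild-type members, against 607 and 462 CPM in the others. Of 9 upper-layer genes tested, 8 were at least 1.5-fold lower in the members of each library, with medians of -1.38 in Gmnc-/- and -1.27 in wild-type. Over all genes, 10.5% in Gmnc-/- and 13.9% in wild-type were that much lower. Among cells of no set the upper-layer genes were less reduced. There 6 of the 9 were lower and none higher in Gmnc-/- members (median -0.95), and 4 were lower and 1 higher in wild-type members (median -0.44). The background of lower genes there was 9.57% in Gmnc-/- and 12.8% in wild-type.

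The source of the marker UMIs was read in all kept cells. Of 623 Ctgf UMIs in the Gmnc-/- library, 45.4% were in the astroglial set, 28.1% in the vascular set, 8.35% in the meningeal set and 16.7% in cells of no set. Of 463 Ctgf UMIs in the wild-type library, 36.5% were astroglial, 38.4% vascular, 16.2% meningeal and 8.64% in no set. Ctgf was thus counted mostly in cells of the 5 sets in both libraries. Cells of no set were below the limits of the sets but not free of other-type markers. Among members of no set, 25 of 26 in Gmnc-/- and 13 of 15 in wild-type held at least 1 astroglia marker. Nr4a2 was more evenly spread: 52% of 2364 UMIs in Gmnc-/- and 34.6% of 1568 UMIs in wild-type lay in no set, and 16.8% and 30.4% lay in the vascular set. Nxph4 lay mainly in no set, with 85% of 1006 UMIs in Gmnc-/- and 79.1% of 565 UMIs in wild-type. Cplx3 had only 16 UMIs in Gmnc-/- and 7 in wild-type over all kept cells.

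**Figure D2:**
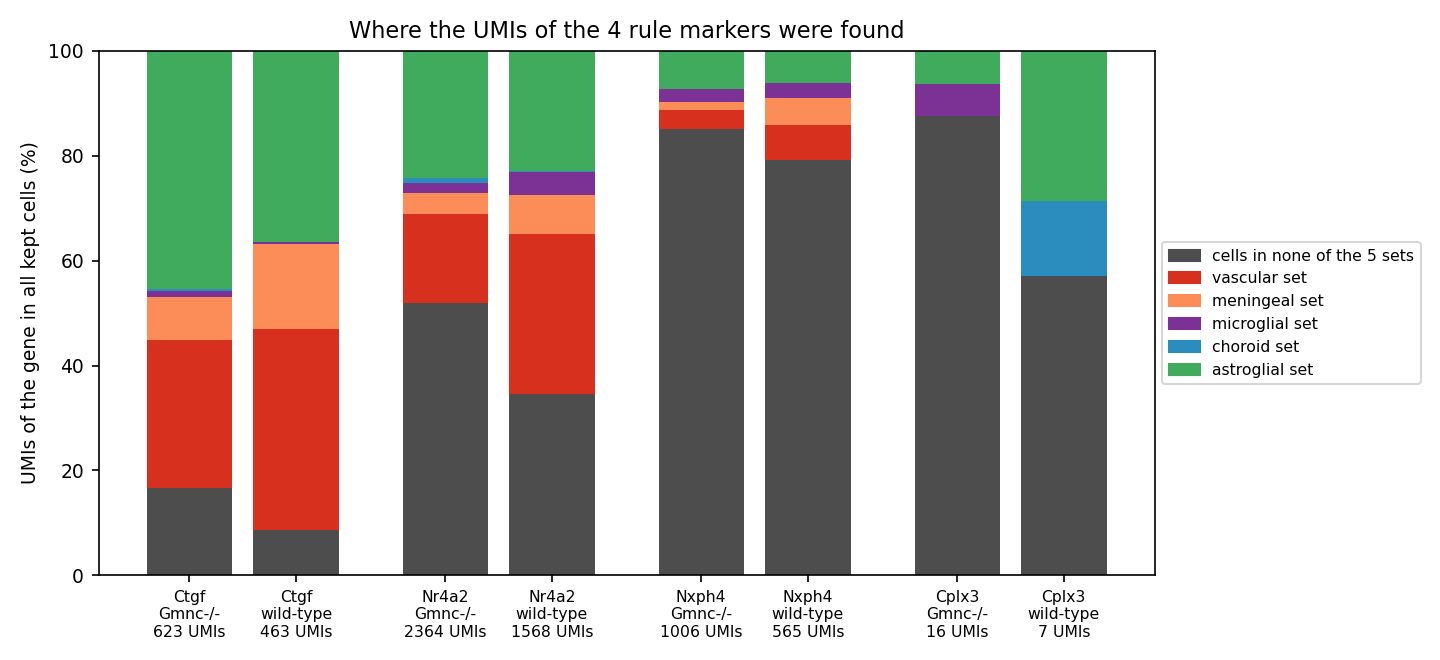
Share (%) of each marker's UMIs over all kept cells that fell in each set, with the Gmnc-/- bar left of the wild-type bar for each gene and the UMI totals below. Cells in no set held 16.7% of Ctgf UMIs in Gmnc-/- and 8.64% in wild-type, but 85% and 79.1% of Nxph4 UMIs.

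The Neurod condition was met by cells that should lack these factors. A UMI of Neurod2 or Neurod6 was found in 29% (22.6 to 36.1) of 186 erythroid cells of the Gmnc-/- library (median 6495 UMIs) and 22% (14 to 31.9) of 91 erythroid cells of the wild-type library (median 12129 UMIs). Among microglia the share was 35.3% of 876 Gmnc-/- cells (median 7095 UMIs) and 27.1% of 495 wild-type cells (median 10700 UMIs). In the vascular set it was 27.1% (22.4 to 32.2) of 336 Gmnc-/- cells, below both of those background classes, and 23.7% of 241 wild-type cells, between them. At least 2 markers were held by 21.1% of the Gmnc-/- and 25.7% of the wild-type vascular cells, with a Ctgf UMI in 29.5% and 29.9% and an Nr4a2 UMI in 41.4% and 43.2%. The whole rule was met by 4.17% of the Gmnc-/- vascular cells and 4.56% of the wild-type ones. Among cells of no set with a Neurod UMI, a Ctgf UMI was found in 0.314% (0.215 to 0.442) of 10205 Gmnc-/- cells and 0.208% (0.0899 to 0.41) of 3842 wild-type cells. Both shares were below the 3.23% of Gmnc-/- and 6.59% of wild-type erythroid cells. Nr4a2 was also below, in 3.92% and 4.14% against 6.99% and 11% of erythroid cells. At full depth Nxph4 went the other way, in 6.05% (5.59 to 6.53) of the Gmnc-/- and 7.89% (7.05 to 8.78) of the wild-type cells of no set. Its erythroid shares were 1.61% (0.334 to 4.64) in Gmnc-/- and 2.2% (0.267 to 7.71) in wild-type.

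Other genes known from subplate and layer 6b neurons, which the rule did not use, were read beside the label. Their list was chosen with earlier results of these data known. The list of 15 held Moxd1, Hs3st4, Lpar1, Kcnab1, Inpp4b, Svil, Tmem163, Cdh18, Pls3, Unc5c, Htr1d, Zfpm2, Tmem178, Trh and Drd1, of which 9 reached 50 CPM in members of either library. In both libraries 4 of the 15 were at least 1.5-fold higher in members than in other excitatory cells: Lpar1, Inpp4b, Svil and Pls3, of which Inpp4b was under 50 CPM in both. The background for a call in both libraries was 13.4% of the genes tested. Svil (supervillin, an actin-binding protein) had 122 CPM in Gmnc-/- members and 105 CPM in wild-type members, against 36 and 30 CPM in other excitatory cells. Of its UMIs in members, 68.7% in Gmnc-/- and 35.4% in wild-type were in the vascular set, and 21.2% and 38.6% were in the meningeal set. Pls3, an actin-bundling plastin, came to 62.1% and 52.9% from the vascular set. Inpp4b, a phosphoinositide phosphatase, came to 62.5% and 47.3% from it. Lpar1, a lysophosphatidic acid receptor, had 23 UMIs in Gmnc-/- members and 95 UMIs in wild-type members, of which 43.5% and 41.1% were astroglial and 17.4% and 44.2% meningeal. Over the 9 genes tested, 6 were higher and none lower in Gmnc-/- members than in other excitatory cells (median 1.12), while in wild-type members 3 were higher and 4 lower (median -0.37). The genes higher in Gmnc-/- members alone were Hs3st4, Kcnab1 and Cdh18, with 79.3%, 84.3% and 97.9% of their Gmnc-/- UMIs in members of no set.

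**Figure D3:**
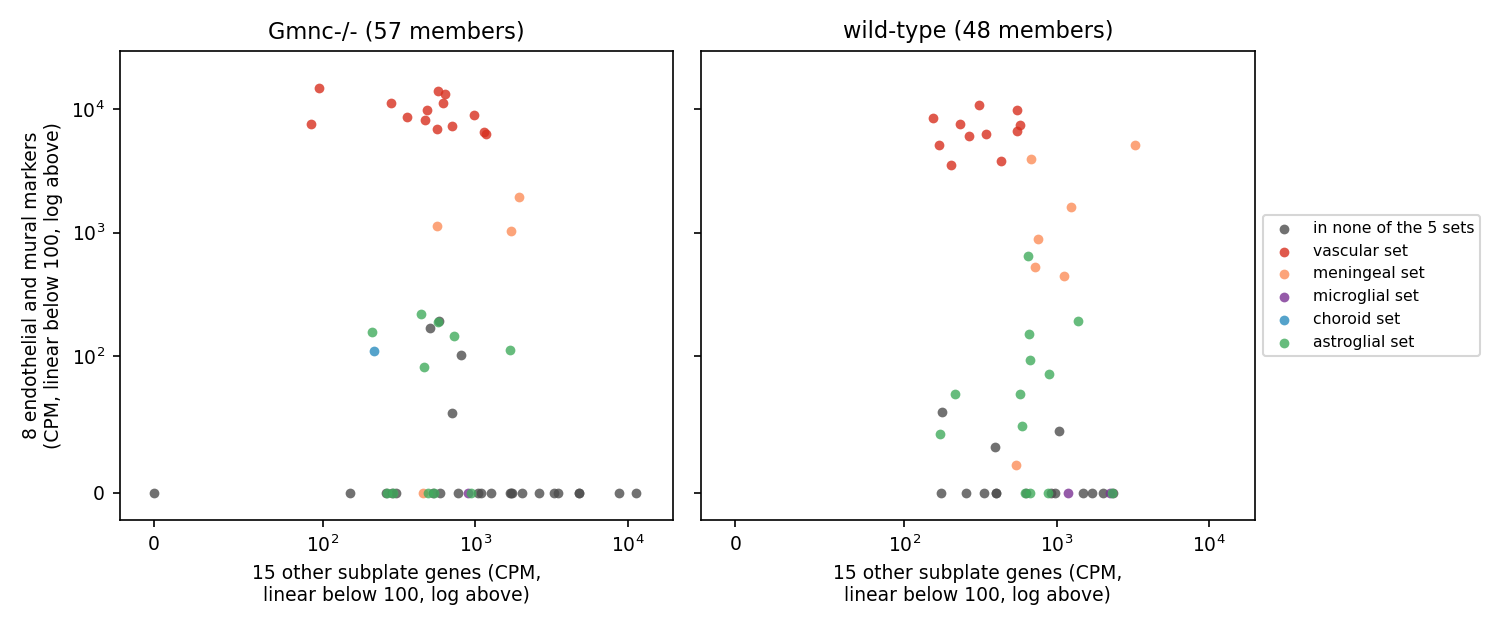
Each point is 1 member: summed CPM of the 15 other subplate genes (x axis) against summed CPM of 8 endothelial and mural markers (y axis), both linear below 100 and logarithmic above, with Gmnc-/- members in the left panel and colours for the sets. Vascular-set members lay between 6361 and 15021 CPM of vascular markers in Gmnc-/- and between 3534 and 10851 CPM in wild-type, while members of no set had at most 192 and 59.3 CPM.

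The 26 Gmnc-/- and 15 wild-type members of no set held more of the other subplate genes in the Gmnc-/- library than in the wild-type library. Their 15 subplate genes summed to 2625 CPM (2418 to 2845) in Gmnc-/- members and 843 CPM (706 to 997) in wild-type members. Other excitatory cells of no set had 735 CPM in Gmnc-/- and 645 CPM in wild-type. Of the 9 genes tested, 8 were at least 1.5-fold higher in Gmnc-/- members of no set than in the other Gmnc-/- cells of no set, and none was lower, with a median log2 ratio of 1.36 (background 10% of genes higher and 9.57% lower). In the wild-type library 2 were higher and 5 lower, with a median of -0.65 (background 12.9% higher and 12.8% lower). Lpar1 and Zfpm2 were higher in both libraries, where 2.57% of genes were. Lpar1 had only 5 UMIs in Gmnc-/- and 8 UMIs in wild-type members of no set, of which 4 and 5 were in 1 cell. Zfpm2, which encodes the zinc-finger cofactor Fog2, had 686 CPM in Gmnc-/- and 543 CPM in wild-type members of no set, against 303 and 256 CPM in the other cells. Per cell the list sum ranged widely: 0 to 11268 CPM with a median of 1060 in Gmnc-/- members of no set, and 175 to 2358 CPM with a median of 634 in wild-type members of no set. The ranges overlapped over all of the wild-type values, and the highest cells were in the Gmnc-/- library.

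**Figure D4:**
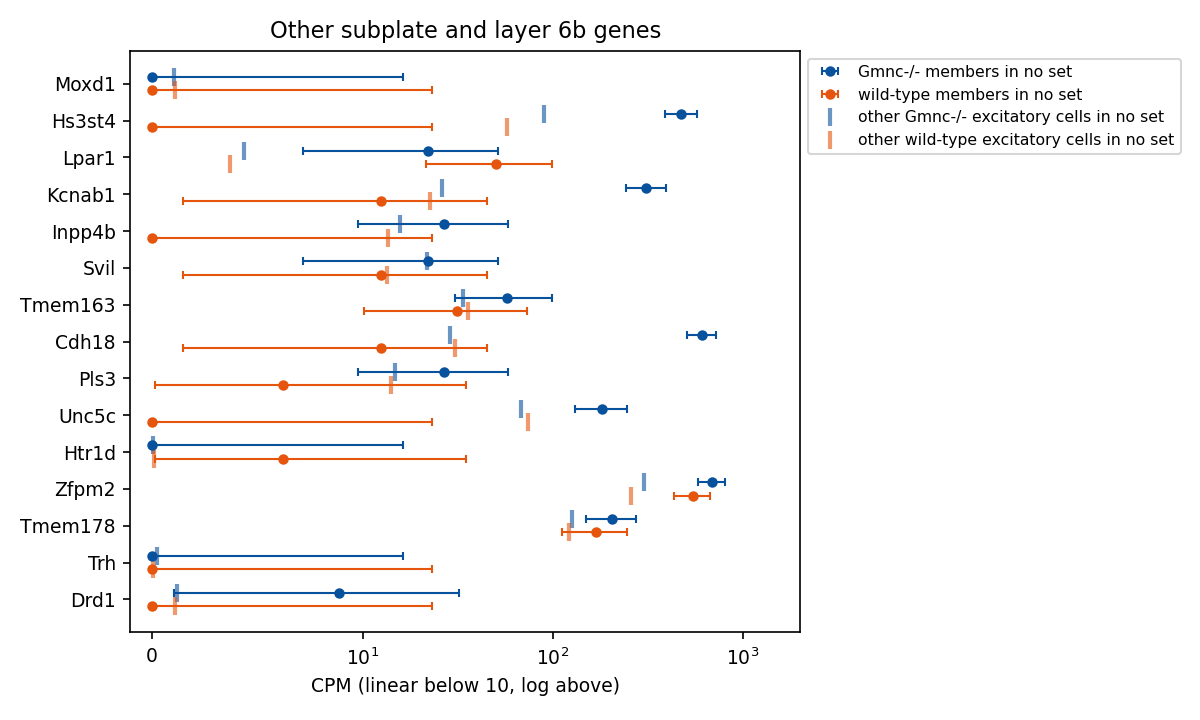
CPM of the 15 other subplate and layer 6b genes in members of no set (points with exact 95% Poisson intervals, Gmnc-/- above wild-type for each gene) and in the other excitatory cells of no set (ticks), on an axis linear below 10 CPM and logarithmic above. Hs3st4, Kcnab1, Cdh18 and Unc5c lay well above the ticks in Gmnc-/- members and at or below them in wild-type members.

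Of the 593 UMIs of the list in Gmnc-/- members of no set, 364 were in 4 cells, described below. The other 22 Gmnc-/- members of no set had 1268 CPM (1109 to 1443), still above the 843 CPM of the wild-type members of no set. Zfpm2 made up 155 of the 593 UMIs, and the 4 cells held only 3, 3, 1 and 0 of those. In wild-type members of no set Zfpm2 made up 87 of the 135 UMIs of the list. Zfpm2 was thus most of the list both in the 22 cells and in the wild-type members of no set. Hs3st4, a heparan sulfate 3-O-sulfotransferase, had 107 UMIs in Gmnc-/- members of no set and 0 in wild-type members of no set. Cdh18, a cadherin, had 137 and 2 UMIs, and Kcnab1, a potassium channel beta subunit, had 70 and 2. Unc5c, a netrin receptor, had 41 UMIs in the Gmnc-/- members and 0 in the wild-type members. Of the 57 Gmnc-/- members 5 held 5 or more Hs3st4 UMIs, a limit set after the counts were seen, and no wild-type member held more than 3. Of these 5 cells, 4 were in no set, and those 4 also held Cdh18 and Kcnab1 and were not marked as doublets. The remaining one was in the astroglial set, was marked as a doublet and held no Cdh18.

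The 4 cells were not alike in their rule markers. The first had 7324 UMIs, of which 18 were Nr4a2 and 1 was Nxph4, with 6 Hs3st4, 20 Cdh18, 3 Kcnab1 and 14 Tle4 UMIs. The second had 8410 UMIs, with 3 Nr4a2, 2 Nxph4, 10 Hs3st4, 3 Cdh18, 2 Kcnab1 and 6 Tle4 UMIs. The third had 10392 UMIs, with 2 Ctgf, 1 Nxph4, 1 Cplx3, 31 Hs3st4, 22 Cdh18, 19 Kcnab1 and 17 Tle4 UMIs. The last had 19169 UMIs, with 1 Ctgf, 3 Nxph4, 1 Cplx3, 59 Hs3st4, 90 Cdh18, 33 Kcnab1 and 21 Tle4 UMIs. The third and the last were the only members of either library with Ctgf, Nxph4 and Cplx3 together, and neither had an Nr4a2 UMI. These 2 cells also held 9 and 18 of the 28 UMIs of Reln, which encodes Reelin, in Gmnc-/- members of no set, against 3 Reln UMIs in wild-type members of no set. Tle4, a corepressor of deep-layer corticothalamic neurons, was in all 4 cells, while none held a UMI of Foxp2, another deep-layer factor, or of Cldn5.

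The combination of Hs3st4, Cdh18 and Kcnab1 was then counted in every cell that met the Neurod and Gad conditions, a description made after these members had been seen. With 5 or more Hs3st4 UMIs and at least 1 UMI of both Cdh18 and Kcnab1, 26 Gmnc-/- cells and 14 wild-type cells were found. They made up 0.0993% (0.0649 to 0.145) of Gmnc-/- kept cells and 0.128% (0.07 to 0.215) of wild-type kept cells, a ratio of 0.776 (0.391 to 1.61). Cells with these 3 genes were thus absent from the wild-type members but not from the wild-type library. The wild-type ones were not shown to be like the 4 members. All 14 held Foxp2, which none of the 4 members held, and none of the 14 held Ctgf or Reln. The rule on 4 markers took 4 of the 26 Gmnc-/- cells and none of the 14 wild-type cells. In Gmnc-/- 12 held none of the 4 markers and 10 held 1, and in wild-type 9 held none and 5 held 1. Their median depth was 8671.5 UMIs in Gmnc-/- and 4923.5 UMIs in wild-type. Foxp2 had 540 CPM in these Gmnc-/- cells and 1190 CPM in the wild-type ones, against 120 and 98.1 CPM in the rest of the cells that met the Neurod and Gad conditions. Grik3, a kainate receptor subunit of deep layers, had 252 CPM and 302 CPM, against 15 and 13.5 CPM in the rest. Nr4a2 had 224 CPM and 85 CPM, against 18.6 and 18.5 CPM in the rest. Cells with the 3 genes in both libraries thus also held deep-layer genes, and most held none or 1 of the markers on which membership rested.

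The members of no set were otherwise mixed in the genes they held. Nxph4 with Nr4a2 was the pair in 21 of the 26 Gmnc-/- and 13 of the 15 wild-type members of no set. The cells of 7324 and 8410 UMIs described above were among the 21. Neurod1, a factor of newborn excitatory neurons, had 3 or more UMIs in 12 of 26 Gmnc-/- members of no set (46.2%, 26.6 to 66.6) and 9 of 15 wild-type members of no set (60%, 32.3 to 83.7). In cells of no set with none of the 4 markers the share was 15.8% in Gmnc-/- and 15.6% in wild-type, at median depths of 4641.5 and 5522 UMIs against 6968.5 and 7882 UMIs in the members. In cells of no set with Nxph4 as the only marker it was 41.1% and 49.8%, at median depths of 5795 and 8172 UMIs. Prox1, a homeobox factor of dentate granule cells, had 3 or more UMIs in 7 of 26 Gmnc-/- (26.9%, 11.6 to 47.8) and 5 of 15 wild-type members of no set (33.3%, 11.8 to 61.6), against 3.37% and 2.63% of cells with none of the 4 markers. Every member of no set with 3 or more Prox1 UMIs also had 3 or more Neurod1 UMIs. The highest Zfpm2 counts of members of no set, 27 UMIs in Gmnc-/- and 23 in wild-type, were also in such cells. Prox1 averaged 319 CPM in Gmnc-/- members of no set and 231 CPM in wild-type members of no set, against 67.1 and 51.5 CPM in the other excitatory cells of no set. Eomes, a T-box factor of intermediate progenitors, had 266 CPM and 212 CPM, against 157 and 113 CPM. Neither the 3 or more UMIs of Prox1 or Neurod1 nor the 5 or more UMIs of Hs3st4 were met by 11 Gmnc-/- and 6 wild-type members of no set.

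Members were a smaller share of the Gmnc-/- library than of the wild-type library. They made up 0.218% (0.165 to 0.282) of Gmnc-/- kept cells and 0.439% (0.324 to 0.581) of wild-type kept cells, a ratio of 0.496 (0.332 to 0.744). Of the cells that met the Neurod and Gad conditions they were 0.71% in Gmnc-/- and 1.43% in wild-type, a ratio of 0.498 (0.333 to 0.747). Depth moved with membership, as members were deeper than the other excitatory cells of both libraries. After thinning to 2000 UMIs, 4 of 22926 Gmnc-/- cells and 1 of 9081 wild-type cells still met the rule, a ratio of 1.58 (0.157 to 78), which gives no direction at this depth. Thinning left out 3252 Gmnc-/- and 1857 wild-type cells, none of them a member.

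By set, the members' share was lower in Gmnc-/- in each set that held 4 or more members of both libraries. Members of the vascular set had a ratio of 0.532 (0.224 to 1.29) among kept cells, whose interval includes equal shares. Those of the meningeal set had 0.239 (0.0513 to 0.939) and those of the astroglial set 0.354 (0.143 to 0.855). Members of no set were 0.0993% (0.0649 to 0.145) of Gmnc-/- kept cells and 0.137% (0.0768 to 0.226) of wild-type kept cells, a ratio of 0.724 (0.37 to 1.47) whose interval includes equal shares. All vascular cells of the libraries, members or not, were 1.28% of Gmnc-/- and 2.2% of wild-type kept cells, a ratio of 0.583 (0.492 to 0.69). The part of these cells in the share of members was not tested.

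Gene levels were compared between Gmnc-/- and wild-type members on UMIs summed over members (809079 in Gmnc-/- and 1213695 in wild-type), as the log2 ratio of CPM with 5 CPM added. Past 1.5-fold, 867 of 4558 genes were higher in Gmnc-/- members (19%) and 420 were lower (9.21%). In the other excitatory cells 179 of the same genes were higher (3.93%) and 235 lower (5.16%). The median log2 ratio of all genes was 0.15 in members. With median-of-ratios scaling, which takes out 0.16 on the log2 scale, 566 genes were higher and 646 lower, so the balance of higher and lower calls turned round with the scaling. Among members of no set, 1006 of the genes were higher (22.1%) and 768 lower (16.8%), with a median of 0.08. Genes higher in Gmnc-/- members were longer, with a median span of 61.1 kb, against 23.9 kb for the lower ones and 42.4 kb for all genes tested.

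Of the 12 highest genes, 7 were counted in 6 or fewer Gmnc-/- members. Ttr had 11285 UMIs in Gmnc-/- members and 9 in wild-type members, and 11282 of them were in the 1 choroid-set cell. Its log2 ratio was 10.13 in all members and -0.19 when the cell with most UMIs was left out of each library. Htr2c, a serotonin receptor also of choroid plexus, had 116 UMIs in Gmnc-/- members and 0 in wild-type members, and Folr1, a folate receptor, had 82 and 7; the same cell held 93.1% and 100% of the Gmnc-/- UMIs. Sostdc1 and Col9a3 likewise had 95.2% and 92.5% of their Gmnc-/- UMIs in 1 cell. Nrgn, the calmodulin-binding neurogranin, had 50 UMIs in Gmnc-/- members and 8 in wild-type members, with 84% of the Gmnc-/- UMIs in 1 cell. Each of these 6 genes thus had at least 84% of its Gmnc-/- UMIs in 1 member.

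The other 6 were neuronal. Hs3st4 had 135 UMIs in Gmnc-/- members and 3 in wild-type members, a CPM ratio of 67.5 (22.6 to 331), with 79.3% of the Gmnc-/- UMIs in members of no set. Cdh18 had 140 and 17 UMIs, a ratio of 12.4 (7.44 to 21.8), with 97.9% of the Gmnc-/- UMIs in no set and 64.3% in 1 cell. Dpp10, a potassium channel accessory protein, had 87 and 14 UMIs, a ratio of 9.32 (5.27 to 17.8), and 14 of 14 wild-type UMIs were in 1 cell. Frmpd4, a scaffold of dendritic spines, had 215 UMIs in 19 Gmnc-/- members and 38 UMIs in 10 wild-type members, a ratio of 8.49 (5.99 to 12.3). Of its Gmnc-/- UMIs, 32.1% were in 1 cell and another 20% in the choroid-set cell. Syt1, the calcium sensor of vesicle release, had 229 CPM in Gmnc-/- members and 33.8 CPM in wild-type members, a ratio of 6.77 (4.8 to 9.74). The choroid-set cell held 10.8% of its Gmnc-/- UMIs. Dlg2, a postsynaptic scaffold, had 513 CPM and 83.2 CPM, a ratio of 6.16 (4.95 to 7.74). Syt1, Frmpd4 and Dlg2 were the more widely held, in 22, 19 and 14 Gmnc-/- members and in 14, 10 and 10 wild-type members. Of the wild-type Dlg2 UMIs in members, 60.4% were in 1 cell. In the other excitatory cells Syt1 had 178 CPM in Gmnc-/- and 163 CPM in wild-type, and Dlg2 had 499 and 487 CPM. Among cells of no set, Syt1 had 372 CPM in Gmnc-/- members against 210 CPM in the other Gmnc-/- excitatory cells, and 87.4 CPM in wild-type members against 209 CPM in the other wild-type excitatory cells. Dlg2 had 1067 CPM in Gmnc-/- members of no set against 587 CPM, and 62.4 CPM in wild-type members of no set against 621 CPM. In no set, both genes were thus higher than in the other cells in Gmnc-/- members and lower in wild-type members. Without the 4 cells with Hs3st4, Cdh18 and Kcnab1, the log2 ratio of Cdh18 was -0.72 and that of Dpp10 was -0.89.

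The 12 lowest genes were Spp1, Rsph1, Pf4, Cldn11, Dnah12, Meig1, Spag16, Dynlrb2, Sidt1, Ankfn1, F13a1 and Thsd4. Spp1, the osteopontin of activated microglia, had 0 UMIs in Gmnc-/- members and 98 in wild-type members, of which 65.3% were in 1 cell. Pf4 and F13a1, genes of macrophages, had 2 and 4 UMIs in Gmnc-/- members and 116 and 75 in wild-type members, of which 89.7% and 93.3% were in 1 cell. Cldn11 had 2 UMIs in Gmnc-/- members and 101 in wild-type members, all in the meningeal set, and Sidt1 had 8 and 119, with 94.1% of the wild-type UMIs in the meningeal set. Rsph1, Dnah12, Meig1, Spag16 and Dynlrb2 encode parts or partners of motile cilia. Their counts were 0, 1, 1, 3 and 4 UMIs in Gmnc-/- members and 81, 67, 67, 91 and 86 UMIs in wild-type members. They came from 3 to 9 wild-type members each, with 48.4% to 64.2% of each gene's wild-type UMIs in 1 cell, and for Rsph1 61.7% were in the vascular set and 35.8% in the astroglial set. In members of no set none of these 5 genes had more than 2 UMIs in either library. All 5 were also lower in the other excitatory cells of the Gmnc-/- library, with log2 ratios from -1.16 (Spag16) to -2.40 (Meig1). Ankfn1 (137 wild-type UMIs) and Thsd4 (125 wild-type UMIs) were at 10 and 9 UMIs in Gmnc-/- members, with 66.4% and 64% of the wild-type UMIs in the astroglial set.

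By gene list, Gmnc-/- members had more of the synaptic and receptor genes than wild-type members. Of 11 neuronal maturation and synapse genes tested, 9 were higher and none lower, where 19% of all genes were higher and 9.21% lower. The median log2 ratio of the list was 1.23, against 0.15 for all genes tested, 0.20 for this list in other excitatory cells and 0.32 in members of no set. Stmn2, a microtubule regulator of growing axons, had 409 CPM in Gmnc-/- members and 148 CPM in wild-type members. Its Gmnc-/- UMIs were unevenly spread. Astroglial-set cells marked as doublets held 67 and 58 of them, and the 4 cells with Hs3st4, Cdh18 and Kcnab1 held 51, 36, 16 and 5. The median Stmn2 count was 1 UMI per Gmnc-/- member and 1.5 UMIs per wild-type member. In members of no set it was 2 UMIs in Gmnc-/- and 5 UMIs in wild-type. Cplx2, a complexin, had 188 CPM in Gmnc-/- members and 51.1 CPM in wild-type members. Both were lower in the members of each library than in its other excitatory cells, where Stmn2 had 622 CPM in Gmnc-/- and 735 CPM in wild-type. Of 10 glutamate and GABA receptor and transporter genes, 7 were higher and none lower, with a median of 1.18 in members, 0.81 in members of no set and 0.22 in other excitatory cells. Gria1, an AMPA receptor subunit, had 177 CPM in Gmnc-/- members and 45.3 CPM in wild-type members. Without the 4 cells with Hs3st4, Cdh18 and Kcnab1, both list medians were 0.81.

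The counts of the other lists are read against the same 19% of all genes higher and 9.21% lower. The list of other subplate and layer 6b genes had 5 genes higher and 1 lower of 9 tested, with a median of 0.90 in members and 0.15 in other excitatory cells. Without the 4 named cells the median was 0.33. Lpar1 was the lower one, with 28.4 CPM in Gmnc-/- members and 78.3 CPM in wild-type members, and Tmem178 was among the higher ones with 89 and 45.3 CPM. Of 4 layer 6 corticothalamic genes, Tle4 (176 CPM in Gmnc-/- and 102 CPM in wild-type) and Sox5 (290 and 159 CPM) were higher and none was lower, with a median of 0.56. Layer 5 genes had 3 higher and 1 lower of 5 with a median of 0.71, which was -0.45 in members of no set. Of 8 immature and migrating neuron genes 5 were higher and none lower, with a median of 0.69, which was -0.31 in members of no set. For both lists the direction thus depended on whether members of the 5 sets were counted. Upper-layer genes had 1 higher and 1 lower of 9 with a median of 0.02, hippocampal genes 1 higher and none lower of 5 with a median of 0.41, and claustrum and endopiriform genes 2 higher and none lower of 4 with a median of 0.56. Axon guidance genes had 7 higher and 1 lower of 13 with a median of 0.62. Slit2, a secreted repellent, was the lower one, with 150 CPM in Gmnc-/- members and 274 CPM in wild-type members. Epha7, an ephrin receptor, had 154 and 45.3 CPM.

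Reelin signalling was of interest for the study's question. Of 8 genes tested, only Lrp8 passed 1.5-fold, and none was lower, with a median of 0.26, against 0.21 in other excitatory cells. In members of no set 3 of the 8 were higher and none lower, with a median of 0.32, where 22.1% of all genes were higher and 16.8% lower. Lrp8, the Reelin receptor ApoER2, had 470 CPM in Gmnc-/- members and 222 CPM in wild-type members, and 73.7% and 67% of those UMIs were in the vascular set. In members of no set its log2 ratio was 0.19. Dab1, the intracellular adaptor of the pathway, had 197 CPM in Gmnc-/- members and 213 CPM in wild-type members, with 56% and 85.7% of those UMIs in the astroglial set. In members of no set Dab1 had 168 CPM in Gmnc-/- and 99.9 CPM in wild-type, a log2 ratio of 0.72. Vldlr, the other receptor, had 12 and 9 UMIs. Of 10 subplate secreted and matrix genes, 2 were higher and 2 lower, with a median of -0.22. Sparcl1, a matricellular protein, was a higher one with 894 and 450 CPM, of which 88% and 80.8% of UMIs were in the vascular set. Reln was not tested, with 29 UMIs in Gmnc-/- members and 4 in wild-type members. Of the Cajal-Retzius genes only Calb2 (calretinin) reached 50 CPM, with 61.8 CPM in Gmnc-/- members and 96.4 CPM in wild-type members, and Trp73 had 0 and 3 UMIs.

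Markers of other cell types differed between Gmnc-/- and wild-type members. Of all genes tested 9.21% were lower and 19% higher in Gmnc-/- members. Of 7 astroglia markers 6 were lower in Gmnc-/- members and none higher, with a median of -1.07, against -0.39 in other excitatory cells. All 8 markers of that list were detected in members of both libraries, and they summed to 2781 CPM in Gmnc-/- members and 6304 CPM in wild-type members. Fabp7, a fatty acid binding protein of radial glia, had 1298 CPM in Gmnc-/- members and 3344 CPM in wild-type members. All 4 microglia and macrophage markers tested were lower, with a median of -1.44, and the whole list of 8 summed to 184 CPM in Gmnc-/- members and 559 CPM in wild-type members. These sums rested on few cells. The 1 microglial-set cell held 129 of the Gmnc-/- UMIs. Of the wild-type UMIs, 185 were in the 2 microglial-set cells, 240 in the vascular set and 239 in the meningeal set. In those last sets, 1 vascular member held all 8 markers and 1 meningeal member held 7. Of 8 endothelial and mural markers 4 were higher and 1 lower, with a median of 0.62 and sums of 3483 CPM in Gmnc-/- members and 2400 CPM in wild-type members. Of 5 meningeal markers tested 3 were lower and none higher, with a median of -0.63, and the list of 6 summed to 459 CPM and 841 CPM. No marker of these 4 lists was at 0 in the members of either library. No interneuron or oligodendrocyte lineage marker reached 50 CPM. Immediate early and heat shock genes, which tissue dissociation can induce, had 2 of 9 lower and none higher, with a median of -0.32. Oxidative phosphorylation genes had 2 of 11 lower and none higher, with a median of -0.29 in members and -0.35 in other excitatory cells, and none of 7 apoptosis and p53 genes passed 1.5-fold (median 0.36). The part of the astroglial, microglial, vascular and meningeal markers in the gene differences above was not tested.

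**Figure D5:**
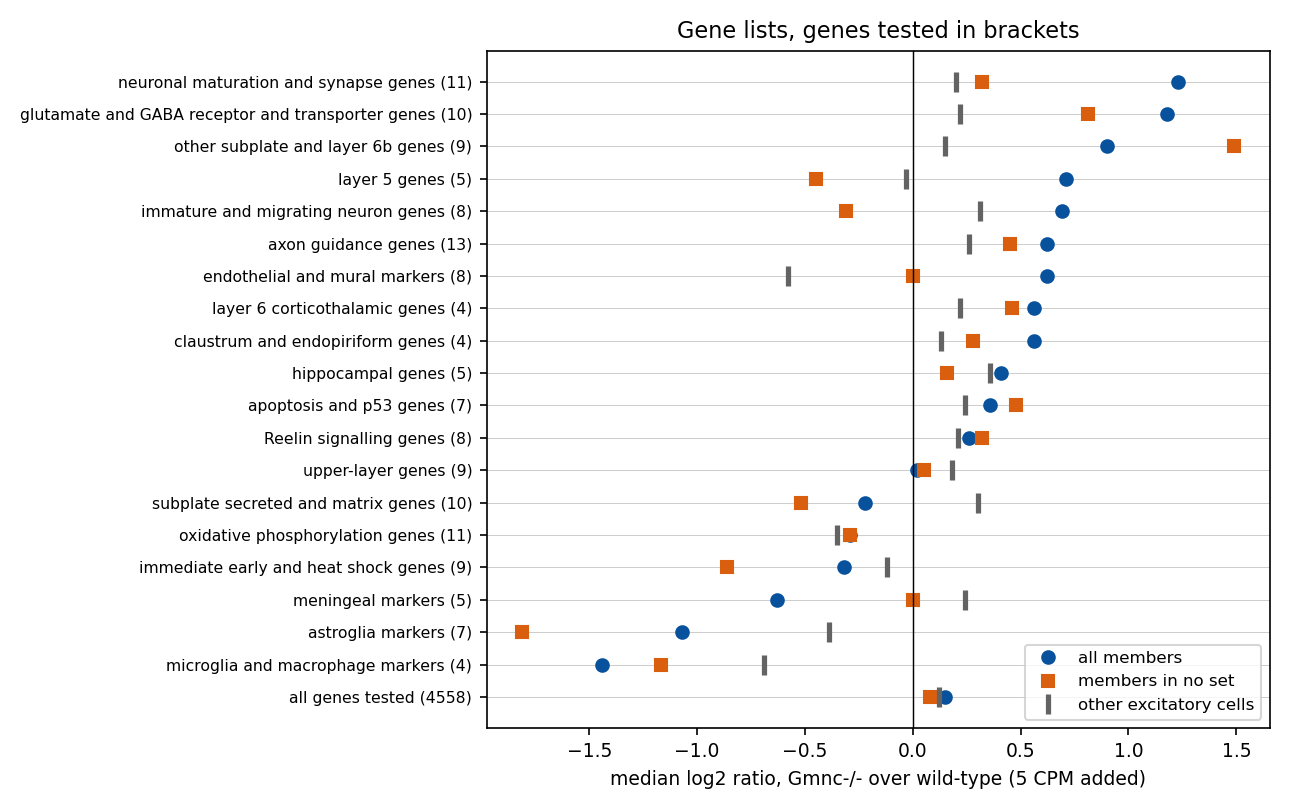
Median log2 ratio of Gmnc-/- over wild-type (5 CPM added) for each gene list with 4 or more genes tested, in all members (circles), members of no set (squares) and other excitatory cells (ticks). The neuronal maturation and receptor lists reached 1.23 and 1.18 in all members, where all genes had 0.15, and layer 5 and immature neuron genes changed sign between all members and those of no set.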

How the data were processed

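Per the submitters' processing notes, reads were processed with Cell Ranger 7.1.0 on mm10, and other settings were not found in the labels or headers. The deposited matrices hold raw UMI counts per gene and barcode, as read from the values, with at least 500 UMIs per barcode. The members, gene lists and named genes were chosen with earlier results of these data known. Gene sums over members were scaled to CPM. The comparisons left out the 8 rule genes, genes of haemoglobin, of the mitochondrial genome and of the ribosome, Xist, Y-linked genes, predicted genes and reporter features. A gene was compared if it reached 50 CPM in members of at least 1 library, with 5 CPM added, and called past 1.5-fold. Named genes were the 12 highest and 12 lowest ratios of Gmnc-/- over wild-type, the 15 highest and 8 lowest of members over other excitatory cells in both libraries, and list genes. Some genes that this rule would name are not reported here. Intervals were exact Poisson for sums, Clopper-Pearson for shares and conditional for ratios. Scrublet in scanpy 1.11.5 called doublets, which were kept, at an expected 0.8% per 1000 barcodes. Python 3.11.15, NumPy 2.4.6, SciPy 1.17.1, pandas 2.3.3 and matplotlib 3.10.9 were used. Gene coordinates and spans are from the GENCODE M21 annotation. The comparison of Gmnc-/- and wild-type members was tested on simulated data over 4558 genes: 25 of 67 genes changed 1.5-fold passed 1.5-fold, as did 64 of 66 changed 2-fold, 67 of 67 changed 4-fold and 56 of 4358 unchanged genes. Alternatives changed the cell filter, doublets, sex pattern of cells, marker number, denominator, depth, scaling, weighting of cells, added CPM, gene filter and fold.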

Additional observations from a re-analysis of the deposited data

How the results depend on the processing

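The lower share of members in Gmnc-/- (ratio 0.496) turned round where few members were left: 2.09 (0.234 to 98.8) with 3 or more markers, which left 5 Gmnc-/- cells and 1 wild-type cell, and 1.58 (0.157 to 78) after thinning. Against 867 genes higher and 420 lower, the counts were 566 and 646 with median-of-ratios scaling, 1473 and 912 at 20 CPM, 1748 and 1410 at 10 UMIs, 217 and 135 at 2-fold, and 1357 and 904 in male-pattern cells. Genes lower numbered 742 in female-pattern cells and 736 in members of no set with the gene filter set on those cells. There, 2 other subplate genes (Lpar1 and Zfpm2) were above the other excitatory cells in both libraries, against 4 in all members. For these 4 results, 33 other values stayed close to the main ones. Values for members of no set, without the member with most Ttr, and without the 4 members with Hs3st4, Cdh18 and Kcnab1 were chosen after seeing the data. The 3-marker rule gave no gene sums, since fewer than 10 members were left.

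Among list medians, 217 values stayed close, 38 moved and 11 changed sign; among named genes, 207, 88 and 17 did. The cause of these changes was not tested, except where named cells were left out. Lists that changed sign were meningeal markers at 2000 UMIs and under 5% mitochondrial (0.00) and without called doublets (0.19); Cajal-Retzius genes without called doublets (1.32), in female-pattern cells (1.94), at 20 CPM (0.85) and in members of no set with the gene filter set on those cells (0.45, against -1.54 with the genes tested in all members); other subplate genes (-0.93) and immature neuron genes (-0.31) in male-pattern cells; and layer 5 genes as a mean over cells (-0.12). In members of no set, layer 5 genes were at -0.45 and immature neuron genes at -0.31. Genes that changed sign were F13a1 under the stricter cell filter (0.05), Folr1 (-1.47) and Ttr (-0.01) in female-pattern cells, and Cdh18 (-2.78), Dnah12 (0.76), Meig1 (0.76) and Pf4 (1.26) in male-pattern cells. In members of no set they were Col9a3 (-0.34), Dynlrb2 (0.91), Sidt1 (0.91), Thsd4 (1.47) and Ttr (-0.25). Without the member with most Ttr they were Col9a3 (-0.28), Folr1 (-1.11) and Ttr (-0.48), and without the 4 named cells Cdh18 (-0.72) and Dpp10 (-0.89). The other subplate genes' -0.93 came from 18 Gmnc-/- and 11 wild-type male-pattern members.

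No paired analysis was possible because each genotype has 1 library. Counting intervals leave out animal, litter and library differences, and genotype and library cannot be told apart.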

Other observations

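The feature lists of both matrices include the non-mouse features Stop-Ai9, Tomato and LacZ, although the labels name no reporter allele. Stop-Ai9 had 194 CPM (192 to 196) in Gmnc-/- kept cells and 569 CPM (564 to 574) in wild-type kept cells. In the members it had 257 CPM (223 to 294) in Gmnc-/- and 772 CPM (723 to 823) in wild-type, with UMIs in 34 of 57 Gmnc-/- and 42 of 48 wild-type members. Tomato had 14 CPM in Gmnc-/- and 31.8 CPM in wild-type kept cells, and LacZ had no UMI in either. Gmnc UMIs in members numbered 19 in Gmnc-/- and 1 in wild-type, and the 19 were all in the choroid-set cell.

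Among members, 25 Gmnc-/- and 26 wild-type cells had a female pattern (an Xist UMI and no Y-linked UMI), and 18 Gmnc-/- and 11 wild-type cells had a male pattern. Over all kept cells the female pattern was found in 11682 Gmnc-/- and 7368 wild-type cells and the male pattern in 6307 Gmnc-/- and 1620 wild-type cells.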
